A study of Mus musculus with 9 samples.

Results

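The epidermal growth factor (EGF) family was followed in epithelial cells of the mouse kidney and small intestine through 10 genes of 28478 gene names on the array. They comprised the ligands Egf, Btc, Tgfa, Areg, Ereg and Hbegf, the receptors Egfr, Erbb2 and Erbb3, and Lrig1, a transmembrane inhibitor of the receptors. They were taken as every non-control probe whose gene name in the scanner files was one of these genes. This gave 23 probes on 68 spots, with more than 1 probe for 6 of the 10 genes.

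The ligands of this family are made as membrane-anchored precursors, and metalloproteases such as Adam17 and Adam10 release them from the cell surface. Egf, Tgfa, Areg, Ereg, Hbegf, Btc and Epgn bind the EGF receptor, and Hbegf, Btc and Ereg also bind Erbb4. Erbb2 has no known ligand of its own and Erbb3 has little kinase activity, so both signal in pairs with other ErbB receptors, and neuregulins are the main ligands of Erbb3 and Erbb4. In the intestine, EGF receptor signalling drives proliferation in the crypt, where Lrig1 is known as an inhibitor expressed by stem and progenitor cells. In the kidney, Egf is known as a product of the thick ascending limb and the distal convoluted tubule, and it appears in urine.

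RNA came from cells sorted from C57BL/6 mice, the only strain in the series, with 3 replicates in each of 3 groups and 1 single-colour array for each replicate. The kidney group held Epcam-positive cells from kidneys digested with enzymes, with 4 mice pooled for each replicate. Both intestinal groups were freed with EDTA from small intestine, with 3 mice pooled for each replicate. MHCIIhi cells were high for Epcam and for MHC class II on the surface. MHCIIlo cells, called MHCIIint in the cell type label, were intermediate for both. CD45-positive leukocytes and dead cells stained by Fluorogold were gated out of all groups. No age or sex is given in the sources used here. A pool of sorted cells is a mixture, and fewer cells of a type and less RNA per cell cannot be told apart in it.

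The 75th percentile of the processed signal over non-control probes, a measure of array brightness, ran from 599 to 769 on kidney arrays, from 213 to 371 on MHCIIhi arrays and from 100.6 to 185 on MHCIIlo arrays. Between 51.0% and 73.2% of spots were well above background by the scanner software. All kidney arrays lay on 1 slide, MHCIIhi 1 and 2 on another, and MHCIIhi 3 on the remaining slide together with the 3 MHCIIlo arrays, so kidney shared no slide with either intestinal group. Slide and group cannot be told apart for kidney against either intestinal group, and neither can tissue and the way the cells were released. The slide could enter those comparisons only as a random block, which does not separate them. MHCIIhi 3 and MHCIIlo 1 were each the array of their group nearest to the other intestinal group on the second principal component, and several results are also given without them. Markers of the labelled tissues were present in their groups. All 5 thick ascending limb markers were well above background on all 3 kidney arrays, and so were all 6 endothelial markers, whose summed level was 21.9 to 49.7 times the array's 75th percentile in kidney, 0.0911 to 0.242 in MHCIIhi and 0.183 to 0.258 in MHCIIlo. Summed levels of the 10 enterocyte markers were 12.2 to 31.4 in kidney, 995 to 2252 in MHCIIhi and 3295 to 4847 in MHCIIlo. Those of the 9 crypt base stem cell markers were 3.30 to 4.21 in kidney, 26.7 to 37.5 in MHCIIhi and 17.1 to 24.0 in MHCIIlo. Among these, Msi1 went the other way between the intestinal groups, with a mean log2 level of 2.06 in MHCIIhi and 4.01 in MHCIIlo.

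Levels below are log2 of the processed signal over the array's 75th percentile, so 0 is that percentile and each unit is a doubling. Levels of different probes are not compared with each other, because probes differ in brightness. A gene was represented by its brightest probe (by mean level), and a difference was called at an adjusted p below 0.05 (limma, Benjamini-Hochberg over 19993 genes) and a log2 size of at least 1. All 10 genes were kept by the filter on dim probes. Egf, Btc, Areg and Ereg were not well above background on any array of at least 1 group, so a difference for them was partly built into the filter. Where a group had no array well above background, the fold is given as a lower bound, against the dimmest signal that counted as measured.

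Between tissues, the ligands split. Egf and Btc were higher in kidney, and Tgfa, Areg, Ereg and Hbegf were lower, against both intestinal groups. In kidney against MHCIIhi, 48.4% of all genes tested were called in either direction. There, 2 of the 10 genes were called higher, where 25.6% of all genes tested were called higher, and 6 were called lower (Tgfa, Areg, Ereg, Hbegf, Erbb3 and Lrig1), where 22.8% of all genes were. In kidney against MHCIIlo, where 57.6% of all genes were called, 2 were called higher, against 29.8% of all genes, and 6 were called lower (Tgfa, Areg, Ereg, Hbegf, Erbb2 and Erbb3), against 27.8% of all genes. The median log2 difference over the 10 genes was -1.69 against MHCIIhi and -1.92 against MHCIIlo, beside -0.02 and 0.04 over all genes. These comparisons share the kidney arrays and are not independent of each other. In MHCIIhi against MHCIIlo, where 31% of all genes were called, 2 of the 10 were called higher (Lrig1, and Egf with no MHCIIlo array well above background), where 14.9% of all genes were, and 1 was called lower (Areg), where 16.1% of all genes were. The median over the 10 genes was -0.04 there, beside -0.24 over all genes. Groups whose arrays did not overlap were counted as well. In kidney against MHCIIhi, 2 of the 10 genes lay wholly higher, against 36.1% of all genes, and 7 wholly lower, against 36.1%. In kidney against MHCIIlo, 2 lay wholly higher, against 39.6% of all genes, and 6 wholly lower, against 38.5%. In MHCIIhi against MHCIIlo, 2 lay wholly higher, against 23.7%, and 2 wholly lower, against 32.7%.

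**Figure D1:**
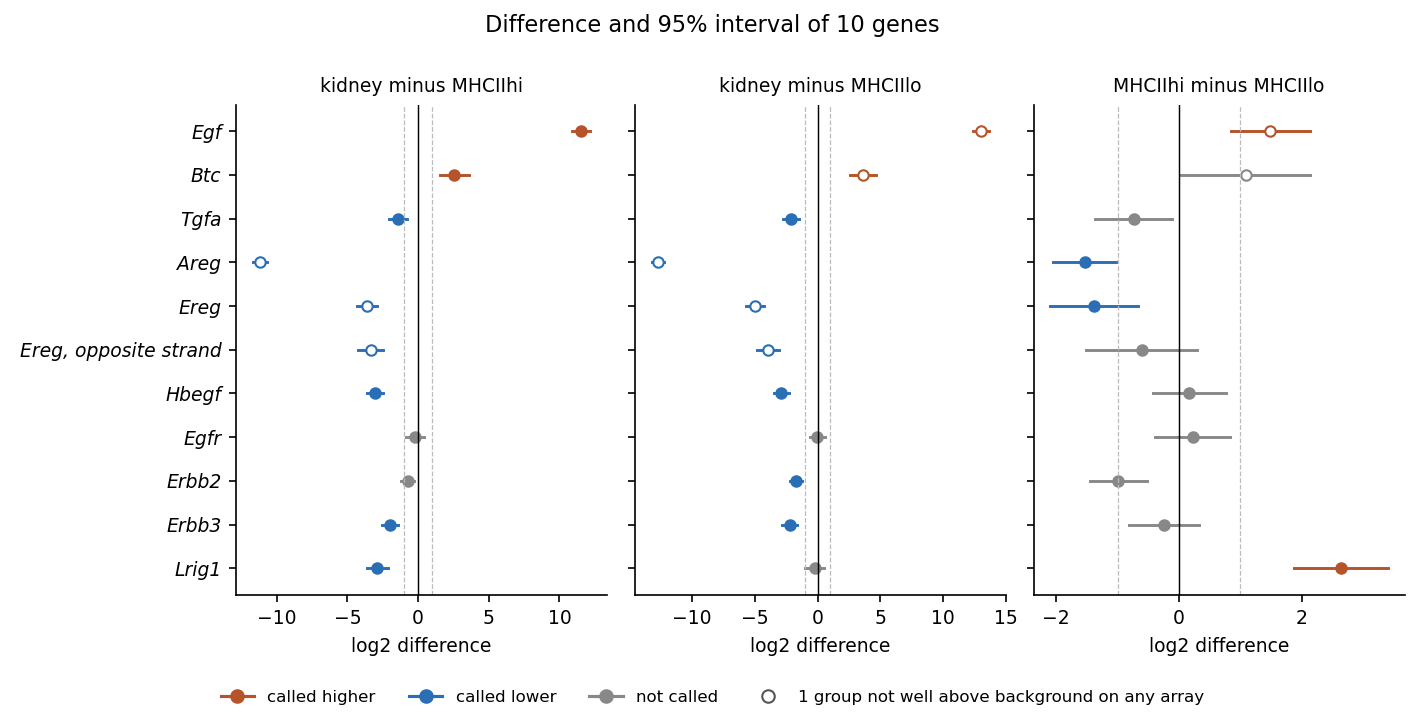
Log2 difference (horizontal axis) of the 10 genes in each of the 3 comparisons, with the 95% interval from limma as a line; dashed lines mark a log2 size of 1, and the horizontal scales differ. Egf and Btc lie to the right of 0 in both kidney comparisons, and Lrig1 has the largest difference between MHCIIhi and MHCIIlo among these genes. Ereg is drawn for both of its probes.

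Egf, the ligand that gave the family its name, separated the tissues most among the ligands that were higher in kidney. Its probe, printed 10 times on each array and placed at chr3:129669930-129669989 on the minus strand (mm8), had levels of 7.21, 7.44 and 7.72 in kidney, against -3.83, -4.15 and -4.29 in MHCIIhi and -5.37, -6.19 and -5.19 in MHCIIlo. The probe was well above background on every kidney and MHCIIhi array and on no MHCIIlo array. The log2 difference was 11.55 ± 0.28 (SE, n = 3 each, limma adjusted p = 1.44e-08) for kidney against MHCIIhi. Egf was at least 2684-fold higher in kidney than in MHCIIlo (adjusted p = 7.40e-09). The thick ascending limb markers, from a segment known to make Egf, summed to 645 to 734 times the 75th percentile in kidney, 0.0264 to 0.125 in MHCIIhi and 0.0604 to 0.129 in MHCIIlo. Those of the distal convoluted tubule, also known to make Egf, summed to 112 to 187 in kidney, 0.564 to 0.772 in MHCIIhi and 0.446 to 0.667 in MHCIIlo. The part of either segment in the result was not tested. Between the intestinal groups, Egf was called higher in MHCIIhi (limma adjusted p = 0.00421), but no MHCIIlo array measured it and no lower bound could be given. The mean MHCIIhi level of -4.09 lay below the dimmest measured level on MHCIIlo 2 (-3.99) and MHCIIlo 3 (-3.43). Those arrays could not have measured Egf at that level, so the call cannot be told apart from array brightness. This call was lost within the slide that held both groups (adjusted p = 0.0875), and with normexp background correction the difference turned to -0.61.

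Btc encodes betacellulin, a ligand of the EGF receptor and of Erbb4. At its brighter probe, chr5:92433122-92433181 on the minus strand (mm8), it had levels of -1.04, -1.73 and -1.78 in kidney, against -3.66, -4.20 and -4.40 in MHCIIhi and -4.18, -6.13 and -5.20 in MHCIIlo. The groups of kidney and intestine did not overlap, while MHCIIhi and MHCIIlo did. It was well above background on all 3 kidney arrays, 2 MHCIIhi arrays and no MHCIIlo array. The difference was 2.57 ± 0.46 (SE, limma adjusted p = 0.00111) against MHCIIhi, and Btc was at least 5.10-fold higher in kidney than in MHCIIlo (adjusted p = 0.000102). With normexp background correction neither difference was called (0.85 with adjusted p = 0.00500 against MHCIIhi, and 0.23 with adjusted p = 0.350 against MHCIIlo). The other Btc probe was not well above background on any array, and with the mean of both probes neither kidney difference was called. Between MHCIIhi and MHCIIlo, Btc was not called (adjusted p = 0.0767), and it became a call without MHCIIlo 1 (adjusted p = 0.0104), again with no MHCIIlo array that measured it.

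Areg, amphiregulin, is an EGF receptor ligand that lies beside Btc. On mouse chromosome 5, the RefSeq gene order puts Epgn, Ereg, Areg and Btc next to each other among protein-coding genes, with no other protein-coding gene between them. In this row of 4 ligand genes, Epgn, Ereg and Areg were called lower in kidney and Btc was called higher, the Epgn call against MHCIIhi being lost in 5 of 22 alternatives. Areg had levels of -7.11, -7.69 and -7.64 in kidney, with no array well above background, against 3.60, 3.53 and 3.98 in MHCIIhi and 5.41, 4.98 and 5.31 in MHCIIlo. The 3 groups did not overlap. Areg was at least 822-fold lower in kidney than in MHCIIhi (limma adjusted p = 7.03e-09) and at least 2378-fold lower than in MHCIIlo (adjusted p = 3.41e-09). Its 60-base probe is shown because this single probe carries the result. It is placed at chr5:92216264-92216323 on the plus strand (mm8).
Areg probe A_52_P482897: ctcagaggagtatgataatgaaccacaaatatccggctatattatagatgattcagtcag

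Between the intestinal groups, Areg was lower in MHCIIhi, by -1.53 ± 0.23 on the log2 scale (SE, n = 3 each, limma adjusted p = 0.00149). Within the slide that held both groups, with MHCIIhi 3 alone against 3 MHCIIlo arrays, the difference was -1.25. Areg is also known from lymphoid cells, and the summed level of the T cell markers was 1.46 to 3.07 in MHCIIhi and 5.26 to 10.1 in MHCIIlo. That of the B and plasma cell markers was 1.09 to 2.17 in MHCIIhi and 21.7 to 36.3 in MHCIIlo. Of 8 T cell markers, 6 were called lower in MHCIIhi and none higher. Of the 7 B and plasma cell markers, 3 were called lower and none higher. Over all genes, 16.1% were called lower and 14.9% higher. Among the B and plasma cell markers, Jchain averaged -0.15 in MHCIIhi and 4.83 in MHCIIlo, while Cd79b averaged -1.50 and -1.63. The gate on CD45 was set to remove such leukocytes, and their part in the difference was not tested.

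The promoters of Areg, Btc and Egf are shown because these ligands lay at opposite ends between the tissues. RefSeq promoter sequences (GRCm38.p6) were found for 7 of the 10 genes, and the 250 bases before each start were searched on both strands for 3 motifs. These were the cAMP response element TGACGTCA, the AP-1 site TGANTCA, and TATAAA of the TATA box, which do not contain one another. Of 32851 promoters, 1.55% held TGACGTCA, 6.75% TGANTCA and 12.4% TATAAA. Among the 7 genes, Areg alone held any of them: TGACGTCA began 61 bases and TATAAA 31 bases before its start. The other 6 held none in this window. A match is a run of letters and says nothing of binding. Capitals mark the matches.
Areg, chr5:91139349-91139598, plus strand: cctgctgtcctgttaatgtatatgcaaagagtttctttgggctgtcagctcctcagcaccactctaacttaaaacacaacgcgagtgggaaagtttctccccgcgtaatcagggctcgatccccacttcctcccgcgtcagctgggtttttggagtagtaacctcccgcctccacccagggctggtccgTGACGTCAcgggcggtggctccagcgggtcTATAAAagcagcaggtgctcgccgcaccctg
Btc, chr5:91402995-91403244, minus strand: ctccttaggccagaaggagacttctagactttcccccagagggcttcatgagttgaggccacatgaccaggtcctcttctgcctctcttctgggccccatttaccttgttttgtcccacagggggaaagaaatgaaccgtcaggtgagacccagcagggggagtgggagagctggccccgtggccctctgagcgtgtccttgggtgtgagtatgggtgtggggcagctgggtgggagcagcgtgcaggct
Egf, chr3:129755323-129755572, minus strand: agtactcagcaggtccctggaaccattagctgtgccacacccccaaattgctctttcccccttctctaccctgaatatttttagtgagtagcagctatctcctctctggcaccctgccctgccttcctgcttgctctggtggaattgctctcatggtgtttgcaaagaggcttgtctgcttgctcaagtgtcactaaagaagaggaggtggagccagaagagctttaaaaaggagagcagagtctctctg

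Ereg, epiregulin, had 2 probes that do not read the same strand. The probe designed on the RefSeq mRNA is placed at chr5:92167833-92167894 on the plus strand (mm8). The brighter probe, which represented the gene by rule, was designed on a stomach cDNA clone named for epiregulin and is placed at chr5:92127088-92127147 on the minus strand, 40.7 kilobases before the first. The other 5 genes with more than 1 probe had all of their probes on 1 strand. At the mRNA probe, levels were -7.98, -8.12 and -8.15 in kidney, none well above background, against -4.64, -5.02 and -3.70 in MHCIIhi, where 2 arrays were well above background, and -2.87, -3.35 and -3.01 in MHCIIlo. Ereg was at least 2.88-fold lower in kidney than in MHCIIhi (limma adjusted p = 1.25e-05) and at least 7.48-fold lower than in MHCIIlo (adjusted p = 1.52e-06). It was also lower in MHCIIhi than in MHCIIlo, by -1.38 ± 0.31 (SE, adjusted p = 0.00850), with groups that did not overlap. MHCIIhi 3, the array on the MHCIIlo slide, was the highest of its group. The minus-strand probe was lower in kidney too, at least 5.82-fold against MHCIIhi and at least 8.86-fold against MHCIIlo. It differed by -0.61 ± 0.40 between MHCIIhi and MHCIIlo (adjusted p = 0.226), a difference that was 0.06 within the shared slide. With the mRNA probe in its place, 2 of the 10 genes were lower in MHCIIhi.

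Epgn, epigen, the other EGF receptor ligand of the chromosome 5 row, had levels of -3.67, -4.66 and -4.64 in kidney, against -2.53, -3.06 and -2.29 in MHCIIhi and -1.82, -1.69 and -3.53 in MHCIIlo. Every kidney array lay below every intestinal array, although MHCIIlo 3 was not well above background. The log2 difference was -1.69 ± 0.50 against MHCIIhi (SE, limma adjusted p = 0.0158) and -1.98 ± 0.50 against MHCIIlo (adjusted p = 0.00628). The call against MHCIIhi was lost with the slide as a random block, without kidney 2 or kidney 3, with MHCIIhi 3 and MHCIIlo 1 left out (-1.53, adjusted p = 0.0545), and at a size of 2. MHCIIhi and MHCIIlo overlapped, with a difference of -0.28 ± 0.50 (adjusted p = 0.658).

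Hbegf, heparin-binding EGF-like growth factor, was present in all groups and lower in kidney. Its probe lies at chr18:36631058-36631117 on the minus strand (mm8). Levels were 2.43, 2.72 and 2.67 in kidney, against 5.76, 5.91 and 5.34 in MHCIIhi and 6.04, 5.26 and 5.21 in MHCIIlo. All kidney arrays were below all intestinal arrays. The difference was -3.06 ± 0.26 (SE, limma adjusted p = 1.13e-05), an 8.34-fold lower level than in MHCIIhi, and -2.89 ± 0.26 (adjusted p = 1.31e-05), a 7.43-fold lower level than in MHCIIlo. MHCIIhi and MHCIIlo overlapped and differed by 0.17 ± 0.26, with a 95% interval of -0.43 to 0.76 (adjusted p = 0.612).

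Tgfa, transforming growth factor alpha, had levels of -4.28, -4.05 and -3.94 in kidney, against -2.86, -2.98 and -2.23 in MHCIIhi and -2.45, -1.79 and -1.63 in MHCIIlo, at its brighter probe at chr6:86237831-86237890 on the plus strand (mm8). Kidney lay below both intestinal groups, which overlapped each other. The difference was -1.40 ± 0.28 (SE, limma adjusted p = 0.00193) against MHCIIhi and -2.14 ± 0.28 (adjusted p = 0.000120) against MHCIIlo. The second probe was called lower in kidney as well, at -1.04 and -1.18. MHCIIhi and MHCIIlo differed by -0.74 ± 0.28 (adjusted p = 0.0519), which became a call of -1.21 (adjusted p = 0.00154) with MHCIIhi 3 and MHCIIlo 1 left out, an alternative chosen after seeing the data. At the second probe this difference was -0.13 (adjusted p = 0.731).

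**Figure D2:**
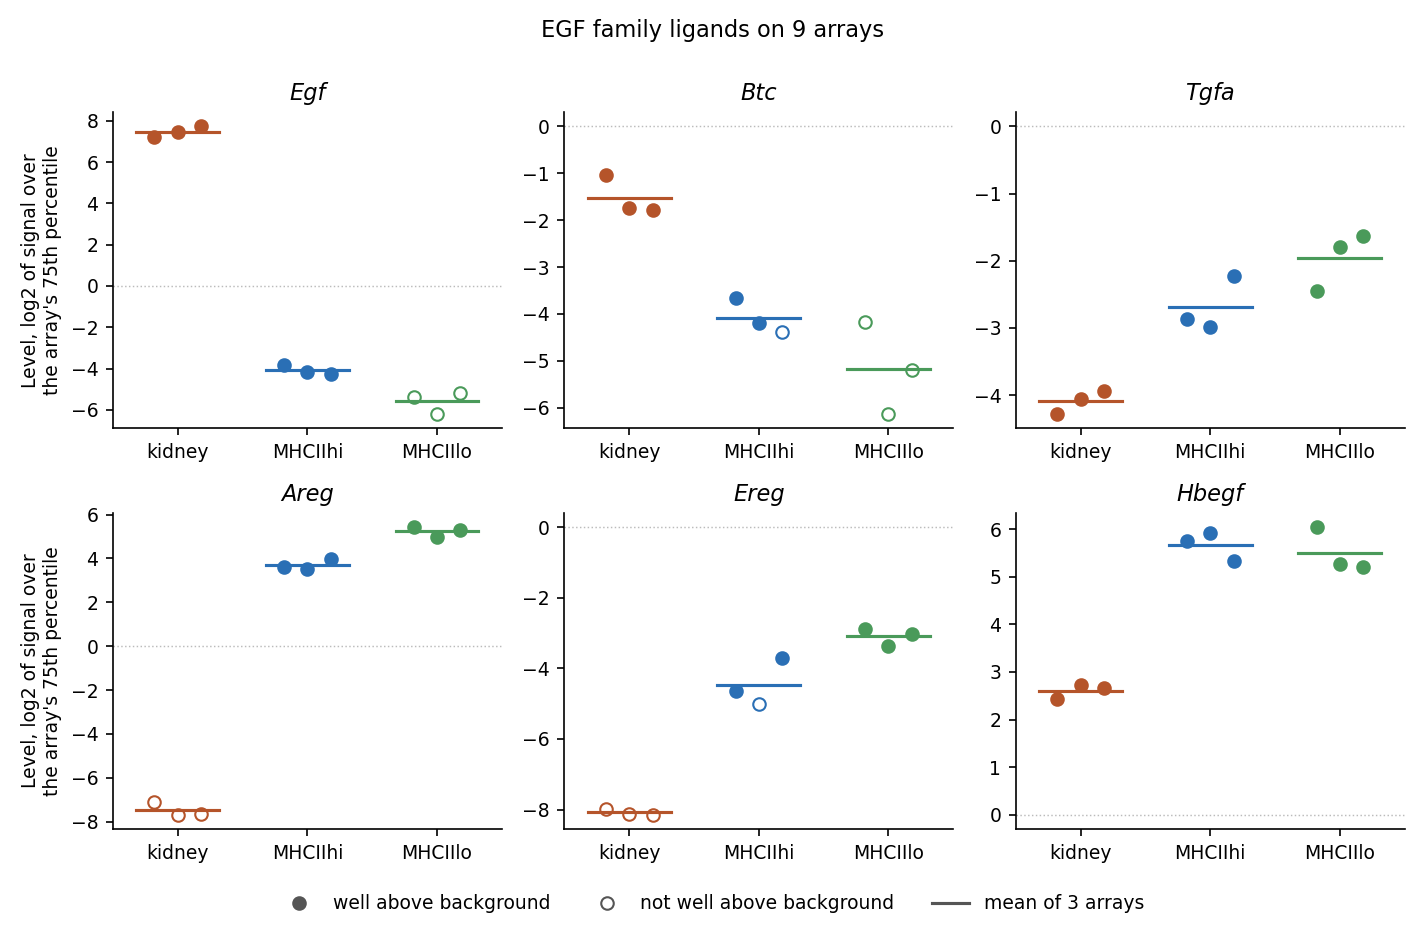
Level of each ligand on the 9 arrays (log2 of signal over the array's 75th percentile), with 1 point per array in the order of replicates 1 to 3 and a bar at the group mean; open points were not well above background, and vertical scales differ between panels. Egf and Btc are highest in kidney, while Tgfa, Areg, Ereg (mRNA probe) and Hbegf have every kidney array below every intestinal array.

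The receptors differed less between tissues than the ligands Egf and Areg did. Egfr, the receptor of all 6 ligands, had levels of 0.57, 0.84 and 0.84 in kidney, against 0.76, 1.05 and 1.14 in MHCIIhi and 1.02, 1.13 and 0.13 in MHCIIlo, at its brightest probe, printed 10 times and placed at chr11:16813815-16813874 on the plus strand (mm8). The 3 groups overlapped. The difference was -0.23 with a 95% interval of -0.84 to 0.39 for kidney against MHCIIhi (limma adjusted p = 0.488), and -0.01 with an interval of -0.62 to 0.61 for kidney against MHCIIlo (adjusted p = 0.984). For MHCIIhi against MHCIIlo it was 0.22, from -0.40 to 0.84 (adjusted p = 0.515). The 6 Egfr probes did not all give this picture. A probe designed on an unclassified embryo cDNA clone, A_52_P5855, was called lower in kidney, by -1.05 against MHCIIhi (adjusted p = 0.0441) and -1.17 against MHCIIlo (adjusted p = 0.0250). A probe on an unclassified colon cDNA clone, A_52_P175190, was called higher in kidney against MHCIIlo by 1.48 (adjusted p = 0.0253), with 1 MHCIIlo array well above background. The 3 other probes, on RefSeq transcripts, gave no call in any comparison.

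Erbb2, the receptor without a known ligand, was placed at chr11:98252879-98252938 on the plus strand (mm8) by a probe printed 10 times. Its levels were 1.16, 0.80 and 0.81 in kidney, against 1.63, 1.35 and 1.95 in MHCIIhi and 2.49, 2.68 and 2.73 in MHCIIlo. The groups did not overlap, with kidney lowest and MHCIIlo highest. The kidney level was lower than in MHCIIlo by -1.71 ± 0.20 (SE, n = 3 each, limma adjusted p = 7.07e-05). Against MHCIIhi the difference was -0.72 ± 0.20 (adjusted p = 0.0128), below the size needed for a call. MHCIIhi differed from MHCIIlo by -0.99 ± 0.20 (adjusted p = 0.00568), just short of the size of 1, and it was past that size without MHCIIhi 3 (-1.14) and without MHCIIlo 1 (-1.06). Within the shared slide it was -0.68 (adjusted p = 0.126). The second Erbb2 probe differed by -0.98 between MHCIIhi and MHCIIlo, by -1.03 between kidney and MHCIIhi, and by -2.01 between kidney and MHCIIlo.

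**Figure D3:**
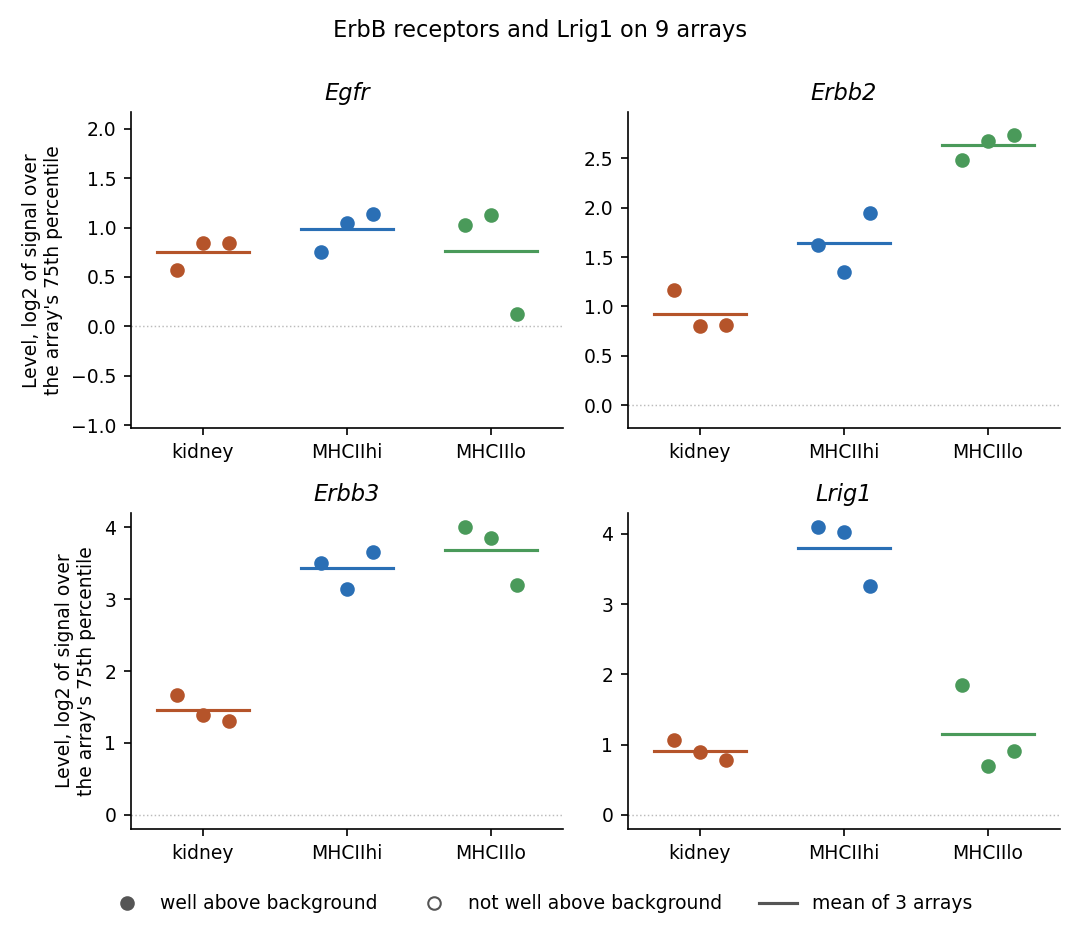
Level of the 3 receptors and of Lrig1 on the 9 arrays (log2 of signal over the array's 75th percentile, brightest probe), 1 point per array with a bar at the group mean; vertical scales differ. Egfr overlaps between groups, Erbb2 and Erbb3 are lowest in kidney, and Lrig1 is highest in MHCIIhi.

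Erbb3, the neuregulin receptor with weak kinase activity, was lower in kidney at all 5 of its probes. At the brightest probe, chr10:127970642-127970701 on the minus strand (mm8), designed on a predicted transcript, levels were 1.67, 1.39 and 1.31 in kidney, against 3.50, 3.14 and 3.66 in MHCIIhi and 4.00, 3.85 and 3.20 in MHCIIlo. All kidney arrays lay below all intestinal arrays. The difference was -1.98 ± 0.25 (SE, limma adjusted p = 0.000131) against MHCIIhi and -2.23 ± 0.25 (adjusted p = 4.91e-05) against MHCIIlo. At the 4 probes designed on the RefSeq mRNA, kidney was lower by -3.10 to -3.72 against MHCIIhi and by -4.43 to -4.97 against MHCIIlo.

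The Erbb3 probes disagreed on the intestinal groups. The brightest probe differed by -0.25 ± 0.25 between MHCIIhi and MHCIIlo (SE, limma adjusted p = 0.425), with groups that overlapped, and by -0.02 within the shared slide. All 4 RefSeq probes were called lower in MHCIIhi. At A_52_P133607, levels were -1.02, -1.49 and -0.34 in MHCIIhi, against 0.22, 1.06 and 0.50 in MHCIIlo, a difference of -1.55 (adjusted p = 0.00537). A_51_P342050 differed by -1.13 (adjusted p = 0.0229), A_51_P488243 by -1.06 (adjusted p = 0.0207) and A_51_P414813 by -1.85 (adjusted p = 0.00315). At each of the 4, MHCIIhi 3, the array on the MHCIIlo slide, was the highest of its group and still below every MHCIIlo array. With the mean of the 5 probes, Erbb3 was lower in MHCIIhi by -1.17 (adjusted p = 0.0103). The RefSeq probes are shown because the reading of Erbb3 turns on them. Capitals mark the 40 bases that A_51_P342050 and A_51_P488243 share, so these probes are not independent of each other.
Erbb3 A_52_P133607, chr10:127987990-127988049, minus strand: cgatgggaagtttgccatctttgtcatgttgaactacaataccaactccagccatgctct
Erbb3 A_51_P342050, chr10:127975088-127975147, minus strand: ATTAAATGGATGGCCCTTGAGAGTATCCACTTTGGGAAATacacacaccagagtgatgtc
Erbb3 A_51_P488243, chr10:127975108-127975396, minus strand: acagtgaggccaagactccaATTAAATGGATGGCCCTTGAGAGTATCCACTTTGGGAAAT
Erbb3 A_51_P414813, chr10:127973174-127973233, minus strand: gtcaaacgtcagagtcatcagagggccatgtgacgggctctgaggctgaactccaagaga

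Probes of Erbb2 and Erbb4 happen to read the same stretch of the kinase domain as Erbb3 A_51_P342050, which allows the receptors' probe sequences to be set side by side. Capitals mark bases identical to that Erbb3 probe in the best alignment without gaps. Over 56 aligned bases, 35 were identical in Erbb2 (62.5%) and 44 in Erbb4 (78.6%). Signal that one receptor's RNA may give on another's probe was not tested.
Erbb2 A_51_P216179, chr11:98250600-98250659, plus strand: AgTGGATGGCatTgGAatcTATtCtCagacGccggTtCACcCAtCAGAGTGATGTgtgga
Erbb4 A_51_P396034, chr1:68011750-68011809, minus strand: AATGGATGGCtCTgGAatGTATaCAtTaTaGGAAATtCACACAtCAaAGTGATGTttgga

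The Erbb2 and Erbb3 probes of this stretch were both lower in kidney, and the Erbb4 probe was higher. This Erbb4 probe passed the filter through kidney alone, so its difference was partly built in. In kidney against MHCIIhi, the Erbb4 probe of this stretch differed by 2.40 (limma adjusted p = 0.00544, with 1 MHCIIhi array well above background), the Erbb2 probe by -1.03 (adjusted p = 0.00844) and the Erbb3 probe by -3.72 (adjusted p = 1.57e-05).

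**Figure D4:**
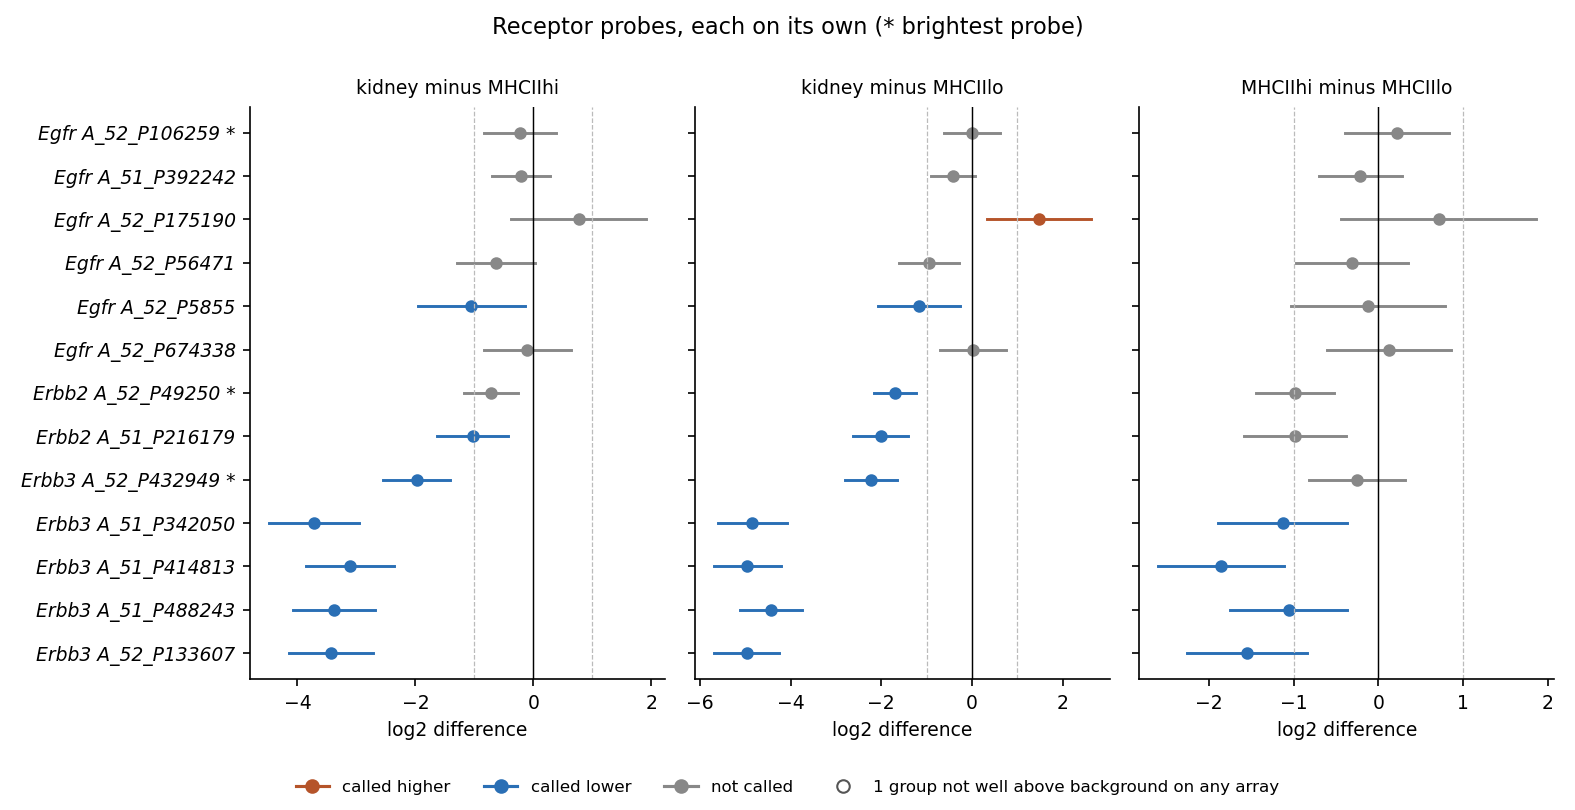
Log2 difference with its 95% interval (limma) at each probe of Egfr, Erbb2 and Erbb3 in the 3 comparisons; an asterisk marks the brightest probe of a gene, dashed lines mark a log2 size of 1, and horizontal scales differ. All 5 Erbb3 probes are lower in kidney, and 4 of the 5 are lower in MHCIIhi than in MHCIIlo.

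Of the other ErbB ligands and receptor, listed as Epgn, Nrg1, Nrg2, Nrg3, Nrg4 and Erbb4, 5 had a probe and 4 were tested. At the brightest probes limma called none between MHCIIhi and MHCIIlo, where the lowest adjusted p was 0.0263, for Erbb4 at -0.72. Dimmer probes of Erbb4 (A_52_P256090, -1.12, limma adjusted p = 0.0189) and Nrg1 (A_52_P369761, -1.21, adjusted p = 0.0141) were called lower in MHCIIhi. No array of either intestinal group was well above background at those probes. Nrg4, a neuregulin that binds Erbb4, had levels of -3.97, -4.92 and -4.96 in kidney, against -3.37, -2.86 and -2.86 in MHCIIhi and -3.44, -2.65 and -3.16 in MHCIIlo. It was lower in kidney by -1.59 ± 0.32 (SE, limma adjusted p = 0.00224) against MHCIIhi and -1.53 ± 0.32 (adjusted p = 0.00222) against MHCIIlo, and every kidney array was below every intestinal array. Nrg3 was not well above background on any array. The brightest Nrg1 probe gave no call in any comparison, while its 4 other probes, dim everywhere, were each called higher in kidney against both intestinal groups, in which they were not well above background. Those 4 probes passed the filter through kidney alone, so a difference was partly built in.

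Erbb4, the receptor shared by neuregulins, Hbegf, Btc and Ereg, likewise had probes that disagreed. The brightest, on a predicted transcript, had levels of 2.09, 2.14 and 1.94 in kidney, against 2.06, 2.03 and 2.50 in MHCIIhi and 2.52, 3.04 and 3.19 in MHCIIlo, and it gave no call. The 3 others, on the RefSeq mRNA, were called higher in kidney. Each of them passed the filter through kidney alone, so a difference was partly built in. At A_52_P608535, levels were -1.95, -1.91 and -1.92 in kidney, against -7.48, -7.32 and -5.77 in MHCIIhi and -6.64, -6.30 and -5.61 in MHCIIlo. No intestinal array was well above background there, and Erbb4 by this probe was at least 8.68-fold higher in kidney than in MHCIIhi (limma adjusted p = 1.56e-05) and at least 4.02-fold higher than in MHCIIlo (adjusted p = 3.09e-05).

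Lrig1, a leucine-rich repeat protein that binds ErbB receptors and promotes their loss from the cell surface, had the largest called difference of the 10 genes between the intestinal groups. Its probe lies at chr6:94570150-94570209 on the minus strand (mm8). Levels were 1.06, 0.90 and 0.78 in kidney, against 4.09, 4.03 and 3.26 in MHCIIhi and 1.85, 0.70 and 0.91 in MHCIIlo. All MHCIIhi arrays were above all others, and kidney overlapped MHCIIlo. Lrig1 was 6.24-fold higher in MHCIIhi than in MHCIIlo, a log2 difference of 2.64 ± 0.34 (SE, n = 3 each, limma adjusted p = 0.000780). Within the shared slide, with MHCIIhi 3 alone against 3 MHCIIlo arrays, the difference was 2.10. In kidney it was 7.35-fold lower than in MHCIIhi (-2.88 ± 0.34, adjusted p = 7.93e-05). Kidney differed from MHCIIlo by -0.24, with a 95% interval of -1.0 to 0.52 (adjusted p = 0.540). Of the 9 crypt base stem cell markers, 6 were called higher and 1 lower in MHCIIhi than in MHCIIlo, with a median difference of 3.86. Called higher too were 6 of 7 Paneth cell and 6 of 7 goblet cell markers, and 9 of 10 enterocyte markers were called lower. Over all genes, 14.9% were called higher and 16.1% lower, with a median difference of -0.24. The part of these cell types in the Lrig1 difference was not tested.

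Genes that act on the ligands and receptors were read from lists, whose counts stand beside the shares of all genes called. Of 7 genes for ligand shedding, 6 were tested. In kidney, 2 were higher and 2 lower against each intestinal group. Against MHCIIhi, 25.6% of all genes were called higher and 22.8% lower, and against MHCIIlo 29.8% higher and 27.8% lower. Timp3, an inhibitor of Adam17, had a mean level of 5.01 ± 0.23 in kidney, against -1.09 ± 0.29 in MHCIIhi cells and -3.57 ± 0.80 in MHCIIlo cells (SD over 3 arrays). That was a difference of 6.10 (limma adjusted p = 1.51e-06) against MHCIIhi and 8.58 (adjusted p = 1.81e-07) against MHCIIlo. Timp3 is also known from endothelial cells, whose markers were on all kidney arrays, and their part was not tested. The protease gene Adam9 was higher in kidney by 1.41 and 1.47 against MHCIIhi and MHCIIlo, and Adam10 was lower by -1.86 and -2.56. Rhbdf2, which carries Adam17 to the cell surface, was lower in kidney by -1.05 and -1.50, and against MHCIIhi it fell short of the size for a call without MHCIIhi 3 (-0.96) and under median scaling (-0.85). Adam17 itself was not called in any comparison. Between the intestinal groups, where 14.9% of all genes were called higher and 16.1% lower, Timp3 was higher in MHCIIhi by 2.48 (adjusted p = 0.00156) and Rhbdf1 by 1.20 (adjusted p = 0.00427). Within the shared slide, on MHCIIhi 3 alone, Timp3 differed by 2.17 and Rhbdf1 by 0.87, short of the size for a call.

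Among 12 negative regulators of the receptors, all tested, 3 were called higher and 3 lower in kidney against MHCIIhi (25.6% and 22.8% of all genes), and 2 higher and 4 lower against MHCIIlo (29.8% and 27.8% of all genes). Errfi1, which encodes the EGF receptor inhibitor Mig6, averaged 2.34 ± 0.06 in kidney, against 4.37 ± 0.34 in MHCIIhi cells and 3.37 ± 0.53 in MHCIIlo cells (SD over 3 arrays). It was lower in kidney by -2.03 against MHCIIhi (limma adjusted p = 0.000235) and by -1.03 against MHCIIlo (adjusted p = 0.00911). The second of these calls was lost in 7 of 23 alternatives, among them without MHCIIlo 1 (-0.73), without kidney 1 (-0.997) and under quantile normalization (-0.50, adjusted p = 0.140). Its difference of 1.0 between MHCIIhi and MHCIIlo (adjusted p = 0.0190) fell just short of the size for a call before rounding. Lrig3, a relative of Lrig1, averaged 0.76 ± 0.06 in kidney, against 3.27 ± 0.10 in MHCIIhi cells and 3.64 ± 0.16 in MHCIIlo cells (SD over 3 arrays), and was lower in kidney in both comparisons (limma adjusted p = 1.79e-06 and 6.67e-07). It did not follow Lrig1 between the intestinal groups, where it differed by -0.37 (adjusted p = 0.0748).

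Socs5, known to promote EGF receptor degradation, was higher in kidney by 4.82 against MHCIIhi (limma adjusted p = 4.37e-05) and at least 13.2-fold against MHCIIlo (adjusted p = 1.32e-05). It was well above background on 2 MHCIIhi arrays and no MHCIIlo array. Socs5 thus passed the filter through kidney alone, so a difference was partly built in. Over 22 alternatives the difference against MHCIIhi ran from 2.11 to 5.23. Socs4, a close relative of Socs5, was lower in kidney by -1.80 and -3.21 against MHCIIhi and MHCIIlo. It was the only 1 of the 12 called between the intestinal groups, where 16.1% of all genes were lower, and it was lower in MHCIIhi by -1.42 (adjusted p = 0.00397), and that call was lost within the shared slide (-1.02, adjusted p = 0.0977).

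Of 10 tested feedback genes, which MAP kinase signalling downstream of receptor tyrosine kinases is known to induce, 5 were higher in MHCIIhi than in MHCIIlo and 1 was lower, beside 14.9% and 16.1% of all genes. Their median difference was 0.83, beside -0.24 over all genes. Spry1, a Sprouty inhibitor of the pathway, averaged 2.11 ± 0.34 in MHCIIhi cells, against 0.64 ± 0.24 in MHCIIlo cells (SD over 3 arrays), and differed by 1.47 (limma adjusted p = 0.00181). The MAP kinase phosphatase genes went in opposite directions, with Dusp4 higher by 1.25 (adjusted p = 0.00509) and Dusp6 lower by -1.07 (adjusted p = 0.00789). The transcription factor genes Etv4 and Etv5 were called higher but were not well above background on any MHCIIlo array, and both differences turned negative with normexp background correction (-0.51 and -0.62). Within the shared slide, on MHCIIhi 3 alone, the calls of this list were lost except that of Spry1, which differed by 1.08. With MHCIIhi 3 and MHCIIlo 1 left out, 5 were higher and 1 lower, but Etv4 was no longer among them (adjusted p = 0.0299, short of the size).

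In kidney, 2 of these feedback genes were higher and 3 lower against MHCIIhi (25.6% and 22.8% of all genes), and 6 were higher and 2 lower against MHCIIlo (29.8% and 27.8% of all genes). Their median difference was 0.11 against MHCIIhi and 1.14 against MHCIIlo, beside -0.02 and 0.04 over all genes. Spred1 was higher by 1.02 against MHCIIhi, a call lost in 7 of 23 alternatives, and by 2.03 against MHCIIlo. Against MHCIIlo, Spry1 was higher by 1.51. Spry4 was called higher against both groups and Etv4 against MHCIIlo, but neither was well above background on any array of those groups. Dusp6 was lower against both intestinal groups, by -1.66 (limma adjusted p = 0.000299) and -2.73 (adjusted p = 1.11e-05), and Phlda1 by -2.11 (adjusted p = 0.000256) and -1.46 (adjusted p = 0.00191). With normexp background correction the counts became 0 higher and 3 lower against MHCIIhi, and 2 higher and 4 lower against MHCIIlo.

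**Figure D5:**
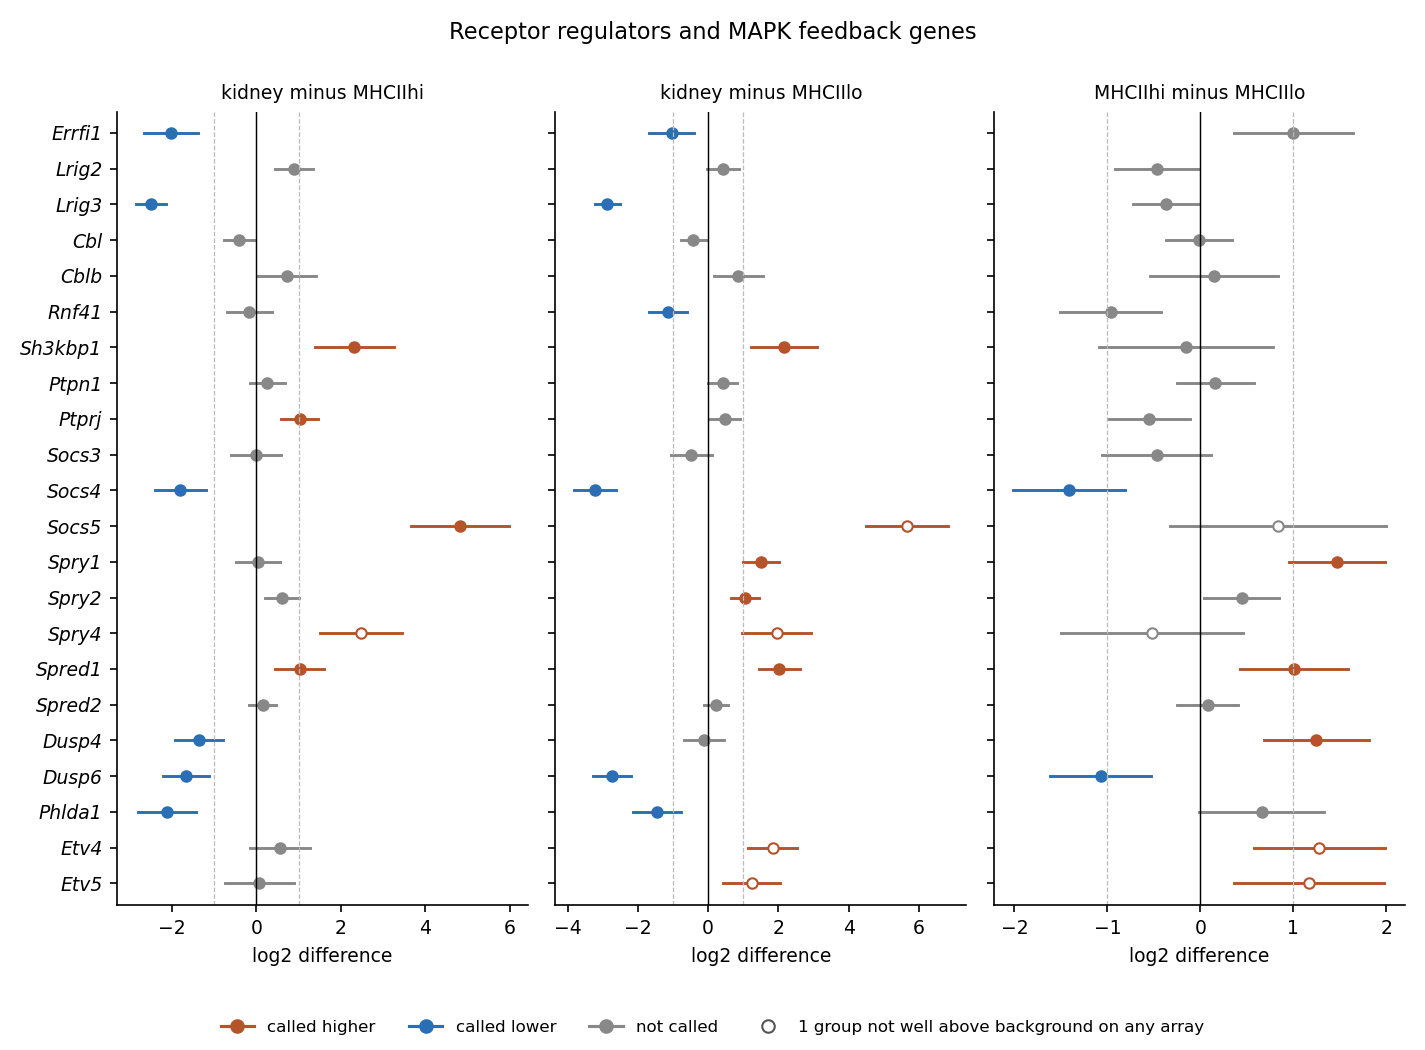
Log2 difference with its 95% interval (limma) of 12 negative regulators of the receptors (Errfi1 to Socs5) and 10 MAP kinase feedback genes (Spry1 to Etv5) in the 3 comparisons; dashed lines mark a log2 size of 1, and horizontal scales differ. Lrig3, Errfi1, Socs4, Dusp6 and Phlda1 are lower in kidney in both kidney comparisons, and Sh3kbp1, Socs5, Spry4 and Spred1 are higher. Spry4 was not well above background on any intestinal array, and its differences turned to -0.28 (MHCIIhi) and -1.21 (MHCIIlo) with normexp background correction.

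Of 20 tested genes for adaptors and the Ras and MAP kinase cascade, 1 was higher and 2 were lower in MHCIIhi than in MHCIIlo, a smaller share than the 14.9% and 16.1% of all genes. Akt1 was higher by 1.32 (limma adjusted p = 0.00326), and Map2k2 and Stat3 were lower by -1.32 and -1.25 (adjusted p = 0.00262 and 0.00551). Within the shared slide none of the 20 was called at this threshold by limma, with adjusted p of 0.0798, 0.0611 and 0.124 for these genes. In kidney, 3 were higher and 3 lower against MHCIIhi (25.6% and 22.8% of all genes), and 2 higher and 5 lower against MHCIIlo (29.8% and 27.8% of all genes). Mapk3 was lower by -1.37 and -1.76, and Braf was higher by 1.33 and 2.28, against MHCIIhi and MHCIIlo.

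Of 12 immediate early genes, known as rapid targets of growth factor signalling and of stress during cell release, 3 were higher in MHCIIhi than in MHCIIlo and none was called lower by limma, with Junb at -0.57 (adjusted p = 0.0202) short of the size. Over all genes, 14.9% were higher and 16.1% lower. Myc averaged 1.24 ± 0.24 in MHCIIhi cells, against -2.03 ± 0.51 in MHCIIlo cells (SD over 3 arrays). It was higher by 3.28 (limma adjusted p = 0.000232), and by 3.01 within the shared slide, on MHCIIhi 3 alone. Egr2 was higher by 2.13 and Fosl1 by 1.56 (adjusted p = 0.00762 and 0.0213), and neither was called within the slide (adjusted p = 0.153 and 0.255). In kidney, 1 was higher and 5 lower against MHCIIhi (25.6% and 22.8% of all genes), and 2 higher and 5 lower against MHCIIlo (29.8% and 27.8% of all genes). Fosl1 was lower by -6.52 (adjusted p = 3.46e-06) and -4.96 (adjusted p = 1.44e-05), and Ier3 was higher by 2.68 and 2.48. Enzymes released the kidney cells and EDTA the intestinal cells, so release and tissue cannot be told apart for these genes, as for all others compared with kidney.

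The genes most like each member in level over the 9 arrays are given as a description. The arrays form 3 groups, so a correlation mostly repeats the group pattern. Egf was followed most closely by Gabarapl1, Kctd1 and Adamts1 (Pearson r of 0.999 for each), and Btc by Arrdc3, Acaa2 and Cldn8 (0.990 to 0.986). Areg was followed by Fabp6, H2-T3 and Adgrg7 (0.999783 to 0.999375), and Hbegf by Gmds, Myd88 and Zc3h12a (0.998 to 0.997). Tgfa was followed by Trip11, Naif1 and Shc4 (0.997 to 0.995), and the minus-strand Ereg probe by Chmp4c, Nostrin and Apobec1 (0.990 for each). Erbb2 was followed by Vps28, Cmtm6 and Kdm7a (0.996 to 0.995), and Erbb3 by Tpd52, Cxadr and Dsg2 (0.995 to 0.992). Lrig1 was followed by Pcna, Nolc1 and Dck (0.997 to 0.996). Egfr, whose groups overlapped, had no gene above an r of 0.890, reached by Serinc5.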

How the data were processed

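Sorted epithelial cells were profiled on single-colour Agilent whole-genome mouse arrays, 1 array for each of 9 replicates. The deposited scanner files hold intensity values. Per the file headers, they were written by version 10.5.1.1 of Agilent's Feature Extraction, and its background-subtracted processed signal was used. The authors' value table equals that intensity divided by each array's median, with a largest relative deviation of 2.37e-05, and served as an alternative. Probe positions are those of mm8, per the file headers.

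Control spots (leaving 43379 of 45018) and outlier spots were left out and spots of a probe were averaged. Signals were scaled to each array's 75th percentile before log2. Of 41174 probes, 24375 were named through RefSeq accessions and 16799 kept the file's name. A gene was its probe with the highest mean, kept if well above background on all 3 arrays of a group, which left 19993 genes. All 9 arrays entered 1 limma fit (limma 3.58.1, R 4.3.3), with Benjamini-Hochberg adjustment within each comparison. The fit was tested on simulated data. Each replicate pools several mice and is described as independent. The number of arrays limits the precision.

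Genes named in the text are the 10 genes with all their probes, the other ErbB ligands and receptor, and genes of the pathway lists. The 10 genes, the lists and the tests were chosen with earlier results of these data known. Alternatives covered background correction, scaling, filter, probe choice, size threshold, slide, replicate number, and each array left out. Plots used matplotlib 3.10.9.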

Additional observations from a re-analysis of the deposited data

How the results depend on the processing

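Of the alternative values for single members, 671 kept direction and side of the threshold, 10 lost a call, 19 gained one and 24 turned sign. Members higher in MHCIIhi than in MHCIIlo numbered 2, and 1 under normexp, under the filter on all arrays, under the slide as a fixed block and at a size of 2, and 3 under the replicate block, without MHCIIlo 1, and with MHCIIhi 3 and MHCIIlo 1 left out. Members lower there numbered 1; they were 2 under the authors' value table, the mean of probes, a size of 0.5, each other Erbb3 probe and the other Ereg probe, 3 with MHCIIhi 3 and MHCIIlo 1 left out (chosen after seeing the data), and 0 under the filter on all arrays or at a size of 2. Leaving out 1 array gave 1 to 2, the higher count without MHCIIhi 3 or MHCIIlo 1. Members higher in kidney numbered 2 in either comparison, 1 under normexp or the mean of probes and 0 under the filter on all arrays, which drops Egf, Btc, Areg and Ereg by construction. Against MHCIIlo they numbered 3 with the Egfr probe A_52_P175190. Members lower in kidney numbered 6 and ranged from 4 to 7 over the alternatives in either comparison.

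Signs turned as follows, and the cause was not tested. For MHCIIhi against MHCIIlo, Egf and Btc were -0.61 under normexp, Erbb3 was 0.037 under normexp and 0.078 under quantile normalization, and with the slide as a block Ereg was 0.062 and Hbegf -0.17. Egfr there was -0.21, -0.31 and -0.12 at other probes, and between -0.094 and 0.40 with 1 array left out, lowest without MHCIIlo 3. Egfr in kidney against MHCIIhi was 0.77 at A_52_P175190. Against MHCIIlo it was 0.11 under quantile normalization, 0.19 under median scaling, 0.12 under normexp, 0.028 with the slide as a random block, 1.48 and 0.021 at other probes, 0.13 with the pair of arrays left out, and between -0.32 and 0.18 with 1 array left out, above 0 without MHCIIlo 1, MHCIIlo 2 or kidney 1. Lrig1 in kidney against MHCIIlo was 0.0043 under normexp, 0.11 with the pair of arrays left out, and between -0.47 and 0.11 with 1 array left out, above 0 without MHCIIlo 1. Under normexp, Etv4 and Etv5 were -0.51 and -0.62 in MHCIIhi against MHCIIlo, Spry4 was -0.28 and -1.21 in kidney against MHCIIhi and MHCIIlo, and Etv4 was -0.78 in kidney against MHCIIlo.

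Over all genes, 2978 were higher and 3219 lower in MHCIIhi, 5120 and 4561 in kidney against MHCIIhi, and 5950 and 5566 in kidney against MHCIIlo. Normexp gave 1436 and 1525, 2815 and 4270, and 2949 and 8012. The slide as a fixed block gave 1380 and 303 for MHCIIhi against MHCIIlo. Other scalings put the median of all genes between -0.30 and 0.18 in kidney against MHCIIhi, -0.26 and 0.23 against MHCIIlo, and -0.26 and -0.07 in MHCIIhi against MHCIIlo. Replicate numbers do not pair the arrays: same-numbered MHCIIhi and MHCIIlo arrays correlated at 0.19, -0.35 and 0.28 in their deviations. The replicate block gave 2968 higher and 3176 lower genes there. A fixed slide block could not be fitted for kidney. Dim probes, on arrays as dim as MHCIIlo, limit Egf, Btc and Ereg.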
